A study of Mus musculus with 6 samples.

Results

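DNA replication and S phase genes encode the proteins that license replication origins, open them, copy the DNA at the fork, supply deoxynucleotides and start S phase. The set described here holds 47 such genes, picked by symbol from the table of 16836 genes, and all 47 were present and were tested. RNA sequencing measured their transcripts in bone marrow-derived macrophages, mouse cells that are grown out of marrow precursors in culture. The libraries came from Ube3a-/- mice (KO) and from wild-type littermates (WT), with 3 of each. Ube3a is the gene of an E3 ubiquitin ligase. The sources used here do not give the knockout allele, the age or sex of the mice or the culture conditions, and they name no treatment. The labels do not tie libraries to separate animals or cultures, so the spread between libraries may be technical in part.

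As background, origins are prepared in G1, when the origin recognition complex, Cdc6 and Cdt1 load the ring of Mcm2 to Mcm7 onto origin DNA, a step called licensing. At the start of S phase, kinases recruit Cdc45 and the GINS proteins to this ring, which makes the active CMG helicase, and primase, polymerases, the PCNA clamp and its loader then build the fork. Many of these genes are transcribed in late G1 by E2F factors, which the cyclin E and Cdk2 kinase helps to release from the retinoblastoma protein. Macrophages divide in culture while a growth factor is present, so cultures of this kind hold dividing cells, and levels here are averages over all cells. Fewer cells in S phase and less of a transcript per cell cannot be told apart in such data.

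Levels are given as CPM, reads brought to a shared library size on the sizes that the authors scaled to. Depth was 25454862 to 35517269 reads per library, and a member had 42 to 17404 reads in a library. Ube3a itself had 69.7, 61.2 and 77.0 CPM in KO libraries 1 to 3, against 207.1, 193.7 and 177.6 CPM in WT libraries 1 to 3, so the label and the targeted transcript go together (limma with Benjamini-Hochberg adjustment over all genes tested, adjusted p = 0.00444). All 10 macrophage markers looked for were in the table, with a summed level of 14031 to 16649 CPM in KO and 15214 to 16015 CPM in WT. Of the stem and progenitor markers, 6 of 8 were in the table, none of them at 0 in every library, and their summed level was 28.7 to 38.2 CPM in KO and 32.5 to 81.2 CPM in WT. For neutrophil markers, 8 of 10 were in the table, none of them at 0 in every library, and the sum was 2.88 to 10.5 CPM in KO and 5.06 to 16.7 CPM in WT. The part of these cells in any result below was not tested. Xist, the RNA of the inactive X chromosome, stood apart in replicate 2 of either genotype, with 28 reads (KO) and 14 reads (WT), where every other library had 30161 or more, so results are also given by Xist level.

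The promoters of these genes held E2F-type motifs more often than promoters at large. RefSeq promoters on GRCm38.p6, 300 bases around each start, were matched for 37 of the 47 genes (45 promoters), and an E2F-type motif (TTTGGCGC, TTTCGCGC, TTTCCCGC or TTTGCCGC on either strand) occurred in 16 of the 45, or 35.6%. Of all 32851 promoters of the same length, 2.26% held one. A CCAAT box (CCAAT on either strand) occurred in 62.2% of the replication gene promoters and in 37.4% of all promoters. The 5 promoters printed here are of 3 subunits of the Mcm ring and of 2 genes with KO libraries below all WT libraries, and capitals mark the E2F-type matches. They lie at chr1:20820263-20820562 (Mcm3, minus strand), chr1:128359656-128359955 (Mcm6, minus strand), chr5:138171834-138172133 (Mcm7, minus strand), chr8:95633309-95633608 (Gins3, plus strand) and chr5:151651159-151651458 (Rfc3, minus strand). In Mcm6, the longer run of capitals holds 2 overlapping matches on opposite strands, so that its promoter has 3 in all. Each of the 5 holds a match, which is not so for all promoters of these kinds. Those of Mcm2 and Cdc45 and a second promoter of Mcm7 hold 0, while those of Mcm5 and Cdk2, not printed, hold 2 and 1. A match is a stretch of letters and not a measured binding site.
Mcm3: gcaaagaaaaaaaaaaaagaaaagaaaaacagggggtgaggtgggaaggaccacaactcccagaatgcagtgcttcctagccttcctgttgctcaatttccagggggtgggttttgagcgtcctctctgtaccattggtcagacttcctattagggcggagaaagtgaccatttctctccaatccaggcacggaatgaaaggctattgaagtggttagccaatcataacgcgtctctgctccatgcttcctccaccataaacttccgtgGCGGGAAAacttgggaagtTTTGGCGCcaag
Mcm6: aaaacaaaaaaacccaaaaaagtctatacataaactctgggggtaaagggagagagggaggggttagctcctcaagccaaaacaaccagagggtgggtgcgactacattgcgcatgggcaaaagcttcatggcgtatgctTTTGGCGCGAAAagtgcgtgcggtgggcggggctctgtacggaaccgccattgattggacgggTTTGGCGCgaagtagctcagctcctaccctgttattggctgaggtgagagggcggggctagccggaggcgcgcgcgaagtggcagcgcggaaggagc
Mcm7: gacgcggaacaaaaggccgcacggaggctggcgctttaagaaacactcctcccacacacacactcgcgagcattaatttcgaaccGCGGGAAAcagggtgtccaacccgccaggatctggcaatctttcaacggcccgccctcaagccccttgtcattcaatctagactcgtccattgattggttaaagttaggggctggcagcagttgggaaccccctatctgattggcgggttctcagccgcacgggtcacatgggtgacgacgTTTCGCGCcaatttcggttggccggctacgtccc
Gins3: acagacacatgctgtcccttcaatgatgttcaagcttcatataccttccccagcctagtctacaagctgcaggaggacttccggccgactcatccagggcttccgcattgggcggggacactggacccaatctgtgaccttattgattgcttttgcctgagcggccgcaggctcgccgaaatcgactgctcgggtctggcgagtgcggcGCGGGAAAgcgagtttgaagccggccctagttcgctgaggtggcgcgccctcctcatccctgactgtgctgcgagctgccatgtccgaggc
Rfc3: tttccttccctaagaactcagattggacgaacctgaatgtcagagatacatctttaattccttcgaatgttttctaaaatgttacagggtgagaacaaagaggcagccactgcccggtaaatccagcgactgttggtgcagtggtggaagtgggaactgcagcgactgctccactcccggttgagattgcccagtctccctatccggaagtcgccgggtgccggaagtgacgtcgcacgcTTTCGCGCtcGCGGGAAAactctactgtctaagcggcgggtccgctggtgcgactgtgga
Across the genes with a matched promoter, the log2 fold change of KO over WT had a median of −0.07 in the 16 with an E2F-type match and also −0.07 in the 21 without one.

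The comparison of genotypes asks whether loss of Ube3a alters the level of replication genes in macrophages. No replication gene changed between KO and WT, and most differences were small, with a shared lean towards lower levels in KO. None of the 47 reached an adjusted p under 0.05 (lowest 0.866), where 2 of the 12118 genes tested did (0.0165%), and 1 of the 47, Rmi2, had an unadjusted p under 0.05, where 500 genes did in all and 2.44% were on the lower side. The log2 fold change was below 0 for 36 of the 47 genes (76.6%), against 49.6% of all genes tested, and its median was −0.07, against 0.0015 over all genes tested. That median was −0.04 without KO library 2, −0.04 without WT library 2 and −0.03 without both. For 6 genes (12.8%), all KO libraries lay below all WT libraries, which was so for 5.55% of all genes tested. The opposite order was seen for 0 of the 47 and for 4.41% of all genes tested. These 6 were Rmi2, Gins3, Cdc45, Mcm4, Cdk2 and Rfc3. Summed over the 47 genes, KO libraries 1 to 3 held 5870, 5427 and 5597 CPM, against 5798, 6016 and 5768 CPM in WT libraries 1 to 3, so the groups overlapped and KO had 96.1% of the WT mean. The data set narrow limits on most members. The 95% interval of the fold change stayed within 1.3-fold either way for 42 of the 47, and within 1.5-fold for 45, where 65.8% and 90.4% of all genes tested had intervals that narrow. The 5 outside 1.3-fold were Rmi2, Ccne2, E2f1, Gins3 and Pola1. A p that misses the threshold does not show that levels were equal.

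**Figure D1:**
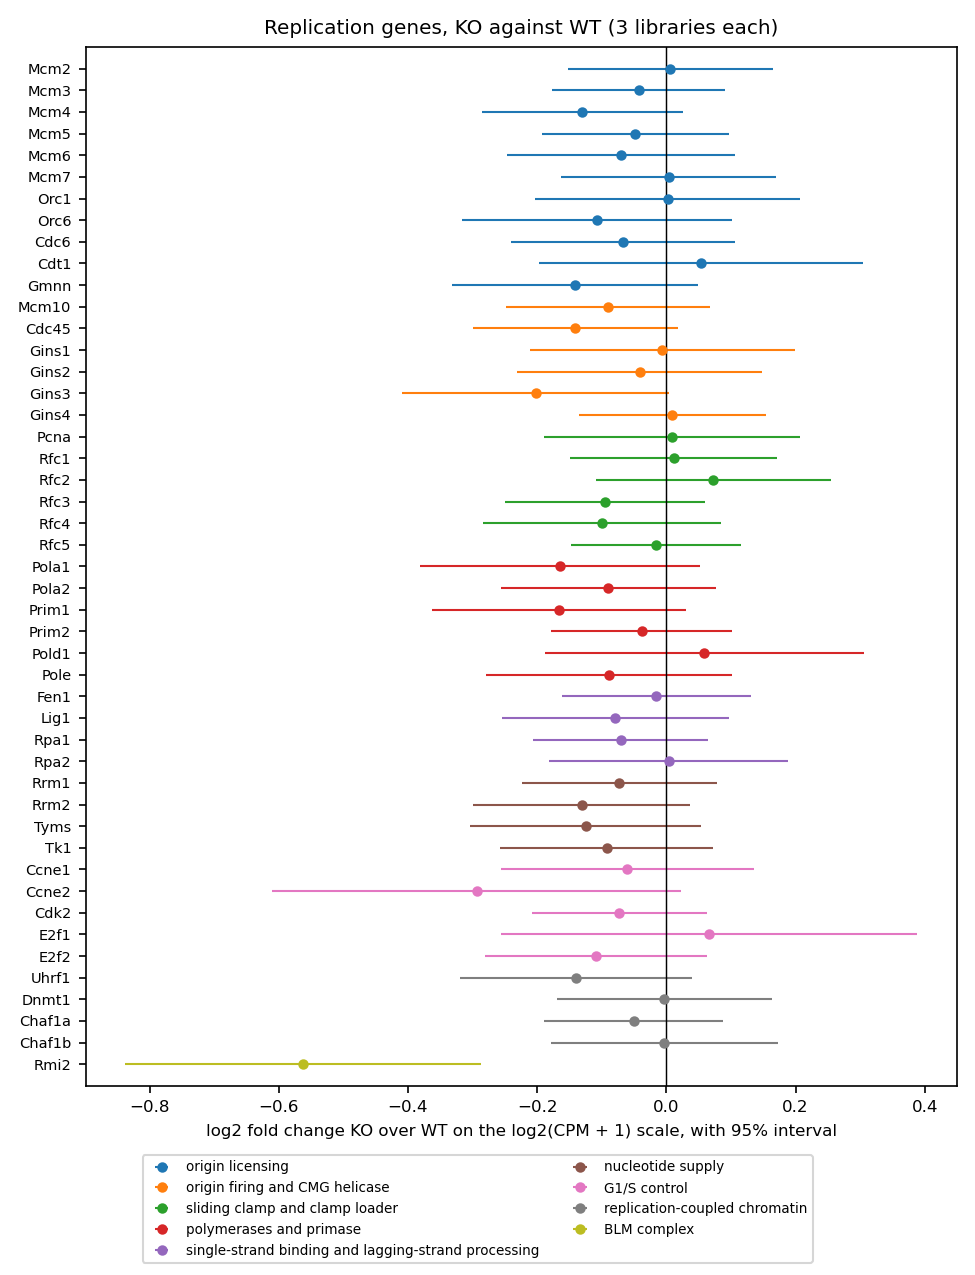
Log2 fold change of KO over WT for the 47 replication genes on the log2(CPM + 1) scale (x axis), with points for the limma estimate, bars for its 95% interval and colours for the role of each gene. Most points lie just left of 0 with intervals that cross it, and Rmi2, at −0.56, has the largest difference.

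Rmi2 encodes a subunit of the complex of the Blm helicase, topoisomerase IIIα and Rmi1, which takes apart joined DNA duplexes that replication and recombination leave. It had 1.68, 1.54 and 1.39 CPM in KO libraries 1 to 3, against 2.59, 2.55 and 3.11 CPM in WT libraries 1 to 3. These values come from 42, 48 and 45 reads in KO and from 81, 72 and 112 reads in WT. Every KO library lay below every WT library, with means of 1.54 ± 0.146 CPM in KO and 2.75 ± 0.310 CPM in WT (SD, n = 3 each), and KO at 55.9% of WT. The log2 fold change was −0.56 (95% interval −0.84 to −0.29), on a scale that understates the change of so low a gene (limma, unadjusted p = 0.00155, adjusted p = 0.866). By unadjusted p it stood at place 12 of the 12118 genes. Rmi2 (ENSMUSG00000037991, GRCm38 chr16:10835059-10892966, plus strand) had the lowest level of the 47 per length as well. Its partners in the complex were Blm, with 37.5, 32.4 and 38.8 CPM in KO and 41.4, 36.1 and 38.9 CPM in WT, and Rmi1, with 18.8, 12.9 and 18.1 CPM in KO and 19.3, 21.3 and 17.7 CPM in WT. For both of them the genotypes overlapped. Top3a, the topoisomerase, had 27.0, 26.5 and 25.9 CPM in KO and 27.3, 25.2 and 27.4 CPM in WT, which overlapped too.

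**Figure D2:**
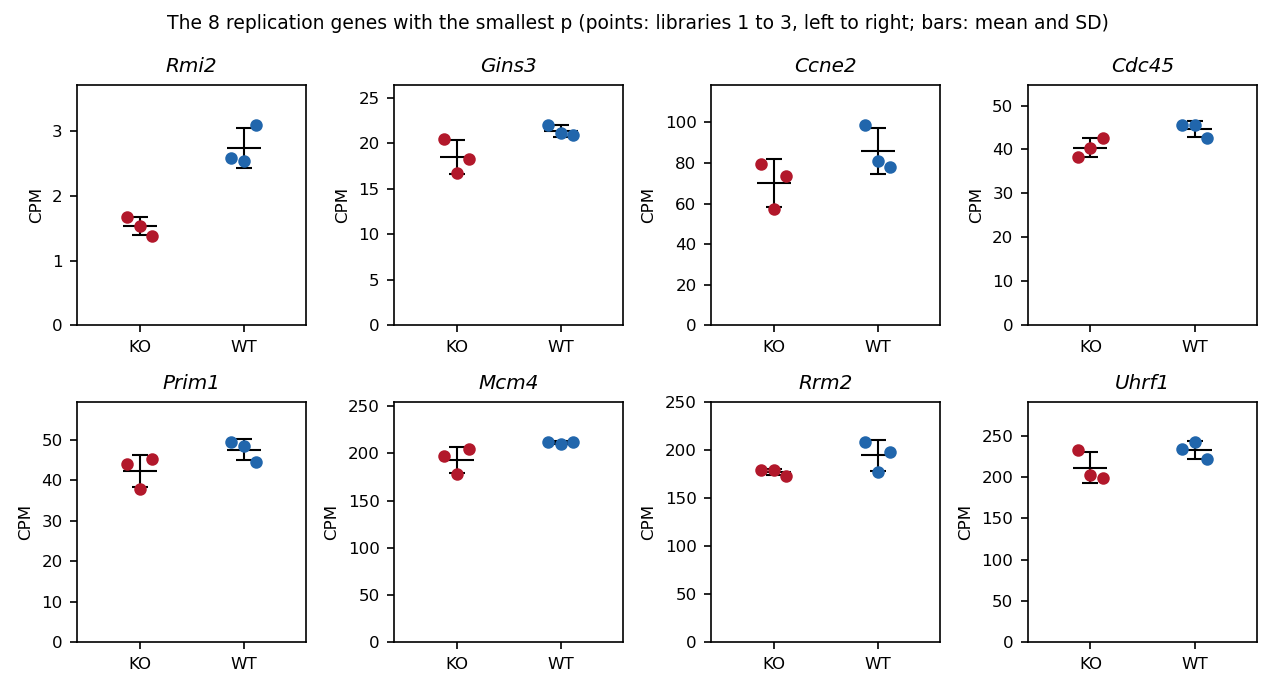
CPM of the 8 replication genes with the smallest p (y axis, from 0, 1 panel per gene), with a point per library for KO (left) and WT (right) and bars for the mean and SD over 3 libraries. Relative to its level, Rmi2 is clear of overlap by the widest margin of the 8, while the points of Prim1, Rrm2, Ccne2 and Uhrf1 overlap between genotypes.

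Origin licensing genes numbered 11, of which 7 had a log2 fold change below 0 (median −0.05) and none changed. Within them, Mcm2 to Mcm7 form the 6-membered ring of the helicase and stayed close together between genotypes. Their summed level was 1456, 1341 and 1389 CPM in KO libraries 1 to 3, against 1409, 1516 and 1418 CPM in WT libraries 1 to 3, or 96.4% of the WT mean. Mcm4 was the subunit without overlap, with 197, 178 and 205 CPM in KO and 212, 209.5 and 212 CPM in WT. The fitted log2 fold change of Mcm4 was −0.13, with a 95% interval of −0.29 to 0.02, and most of the spread came from KO library 2. Mcm6 had 409, 354 and 382 CPM in KO and 393, 424 and 384 CPM in WT, with KO library 2 again the lowest of the 6. Mcm5 had 291, 274 and 280.5 CPM in KO and 279, 306 and 289.5 CPM in WT. For Mcm3 the values were 241, 240.5 and 230.3 CPM in KO and 238, 253 and 243 CPM in WT. The remaining pair of subunits had nearly the same mean in both genotypes. Mcm2 had 172, 159.7 and 156 CPM in KO and 155, 173 and 157 CPM in WT. Mcm7 had 146, 135 and 135 CPM in KO and 132, 151 and 133 CPM in WT, and its exons share bases with Ap4m1 and Cops6 on the other strand. Gmnn encodes geminin, which blocks Cdt1 so that no origin is licensed again within S phase, and it had 69.7, 70.4 and 75.6 CPM in KO, against 83.2, 70.8 and 84.7 CPM in WT. WT library 2 stood apart from the other WT libraries there, level with the KO libraries. Cdt1, the loading factor that geminin blocks, had 96.8, 85.2 and 80.5 CPM in KO, against 74.3, 96.8 and 82.4 CPM in WT, wide and overlapping ranges (log2 fold change 0.05). Orc1 and Orc6, subunits of the origin recognition complex, and the loader Cdc6 had log2 fold changes of 0.0022, −0.11 and −0.07, all with overlap. Orc1 was among the lowest members per length, with 19.9, 16.8 and 18.7 CPM in KO and 19.6, 18.0 and 17.6 CPM in WT.

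Of the 6 genes of origin firing and the CMG helicase, 5 had a log2 fold change below 0 (median −0.07), and 2 had KO libraries below all WT libraries. Gins3, a subunit of the GINS complex, had 20.4, 16.7 and 18.3 CPM in KO, against 22.0, 21.1 and 20.9 CPM in WT. Its mean was 18.5 ± 1.85 CPM in KO and 21.3 ± 0.622 CPM in WT (SD, n = 3 each), with a log2 fold change of −0.20 (95% interval −0.41 to 0.0037). Cdc45, the helicase cofactor that is loaded with GINS, had 38.4, 40.3 and 42.58 CPM in KO, against 45.7, 45.7 and 42.59 CPM in WT. The genotypes were thus parted by KO library 3 and WT library 3 lying next to each other, and exons of Cdc45 share up to 164 bases with Ufd1 on the other strand. The other GINS subunits had smaller differences, and the difference from Gins3 was not tested. Gins1, Gins2 and Gins4 had log2 fold changes of −0.01, −0.04 and 0.01, with overlap in each, and the range over all 6 libraries was 21.9 to 25.8 CPM for Gins1, 37.6 to 45.7 CPM for Gins2 and 40.6 to 43.6 CPM for Gins4. Mcm10, which helps to start the helicase, had a log2 fold change of −0.09 with overlap.

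At the fork, the sliding clamp and its loader showed no lean, with 3 of 6 genes below 0 (median −0.0042), whereas 5 of 6 genes of the polymerases and primase were below 0 (median −0.09). Pcna, the clamp that tethers polymerases to DNA, had 377, 323 and 347 CPM in KO, against 336, 379.9 and 326 CPM in WT, with the highest values in KO library 1 and WT library 2. A processed copy, Pcna-ps2, is listed at 46.9 to 54.4 CPM, so reads may be split between them and the level of Pcna is uncertain by that much. Rfc3, a subunit of the clamp loader, had 32.6, 34.8 and 35.2 CPM in KO, against 35.7, 38.1 and 35.9 CPM in WT (log2 fold change −0.09, 95% interval −0.25 to 0.06). Those groups did not overlap, by a margin that is small beside the spread within them. The other loader subunits ranged from −0.10 (Rfc4) to 0.07 (Rfc2), the highest value of all 47 genes. Pola1 and Prim1 encode catalytic subunits of polymerase α and primase, which lay down the first stretch of each new strand. Pola1 had 118, 96.0 and 116 CPM in KO, against 123, 131 and 114 CPM in WT, and Prim1 had 43.9, 37.8 and 45.1 CPM in KO, against 49.4, 48.4 and 44.6 CPM in WT. In both, KO library 2 was the lowest and the genotypes overlapped (log2 fold changes −0.16 and −0.17). Pola1 lies on chromosome X. The accessory subunits Pola2 and Prim2 had log2 fold changes of −0.09 and −0.04, and Pole, the main polymerase of the leading strand, −0.09. Pold1, the catalytic subunit of polymerase δ on the lagging strand, was the 1 of these 6 above 0, at 0.06, with 83.9, 82.2 and 69.8 CPM in KO and 65.6, 83.5 and 77.6 CPM in WT.

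Single-strand binding and lagging-strand genes were represented by Rpa1, Rpa2, Fen1 and Lig1, of which 3 were below 0 (median −0.04). Rpa1, which coats unwound DNA, was unusually even in KO, at 249.8, 247 and 252 CPM, against 269, 250.0 and 268 CPM in WT. Lig1, the ligase that joins Okazaki fragments, had 207, 176 and 186 CPM in KO, against 209.6, 198 and 193 CPM in WT. It lies on chromosome 7, as Ube3a does, as do Ccne1, Pold1 and Rrm1. These 4 genes are 14.7 to 45.9 Mb from Ube3a, and none of them differed beyond overlap. Fen1, which trims the flaps of Okazaki fragments, had a log2 fold change of −0.02, but its exons share 1909 bases with an antisense transcript, Gm10143. The sources used here do not say whether reads were counted by strand. In all, 14 members share exon bases with a measured gene on the other strand. Gins2 shares up to 2758 bases with Gse1, Chaf1a up to 2542 with Ubxn6 and Rfc2 up to 952 with Lat2. Besides these, Fen1, Mcm7, Cdc45 and Ccne2, they are Orc1, Orc6, Rfc4, Rfc5, Lig1, Tk1 and Cdk2. The part of such overlap in their values was not tested.

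All 4 genes of nucleotide supply were below 0 (median −0.11), and none changed. Their sum was 713, 732 and 743 CPM in KO libraries 1 to 3, against 799, 741 and 796 CPM in WT libraries 1 to 3, where WT library 2 lay among the KO libraries. Rrm1 and Rrm2 encode the large and small subunits of ribonucleotide reductase, which makes deoxynucleotides. Rrm1 had 399.6, 413 and 434 CPM in KO, against 447, 418 and 447 CPM in WT, and Rrm2 had 179.7, 179 and 173 CPM in KO, against 209, 177 and 198 CPM in WT. Tyms, the synthase of thymidylate, had 59.7, 61.3 and 66.9 CPM in KO, against 68.2, 63.5 and 73.8 CPM in WT, and a processed copy of it, Tyms-ps, had 12 to 33 reads. Each of these 3 genes overlapped between genotypes through WT library 2. Tk1, thymidine kinase of the salvage route, ranged from 68.6 to 78.2 CPM in KO and from 75.2 to 82.9 CPM in WT.

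G1/S control genes were 5, with 4 below 0 (median −0.07). Ccne2, the cyclin E2 partner of Cdk2, had the second largest difference of the 47, with 79.7, 57.1 and 73.7 CPM in KO, against 99.0, 80.9 and 77.8 CPM in WT. Its mean was 70.2 ± 11.7 CPM in KO and 85.9 ± 11.4 CPM in WT (SD, n = 3 each), and its log2 fold change of −0.29 had a wide 95% interval (−0.61 to 0.02). KO library 1 lay above WT library 3, so the genotypes overlapped, and exons of Ccne2 share up to 474 bases with Ints8 on the other strand. Cdk2 itself had 93.8, 92.9 and 91.5 CPM in KO, against 96.1, 103 and 94.1 CPM in WT, without overlap, for a log2 fold change of −0.07. Ccne1, the other cyclin E, had 36.9, 32.1 and 30.8 CPM in KO, against 34.8, 36.1 and 33.1 CPM in WT. E2f1, an activator of this gene programme, varied widely within each genotype, with 83.9, 67.5 and 64.3 CPM in KO and 58.3, 81.7 and 66.6 CPM in WT (log2 fold change 0.07). E2f2, a second activator, had 84.5, 83.8 and 80.1 CPM in KO, against 94.9, 81.0 and 92.8 CPM in WT. The 4 genes of replication-coupled chromatin were all below 0 (median −0.03). Uhrf1, which brings the maintenance methyltransferase Dnmt1 to newly copied DNA, had 233, 203 and 198 CPM in KO, against 234, 242 and 221 CPM in WT (log2 fold change −0.14). Dnmt1 had means of 495 ± 27.6 CPM in KO and 496 ± 24.8 CPM in WT (SD, n = 3 each). Chaf1a and Chaf1b, subunits of the histone chaperone CAF-1, had log2 fold changes of −0.05 and −0.0032.

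Between genes, levels can be compared only per length, here as CPM per kb of the longest principal transcript. Most of the 47 were well expressed, with 42 above the median level of all genes tested. Pcna was the highest at 229 CPM per kb (213 to 250.2 over the 6 libraries), followed by Mcm6 at 134 (121 to 146) and Rrm1 at 107 (99.99 to 112). The 3 ranges did not touch. At the other end stood Rmi2 at 0.573, Orc1 at 6.12 and Gins3 at 7.89 CPM per kb. Although the Mcm proteins form a ring with 1 copy of each, their transcripts differed, with Mcm6 at 134, Mcm5 at 84.8, Mcm3 at 79.5, Mcm4 at 56.3, Mcm2 at 48.1 and Mcm7 at 46.8 CPM per kb. Ranges over the 6 libraries overlapped between Mcm5 and Mcm3. They also overlapped among Mcm4 (49.6 to 59.1), Mcm2 (46.1 to 51.2) and Mcm7 (44.7 to 50.8). Within each library, however, Mcm5 was above Mcm3, and Mcm4 was above Mcm2, which was above Mcm7. The order depends on the length used, and the principal transcript length was chosen after seeing the data. With the union of all annotated exons, Rrm1 moved to place 13 while Pcna and Mcm6 stayed first and second.

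**Figure D3:**
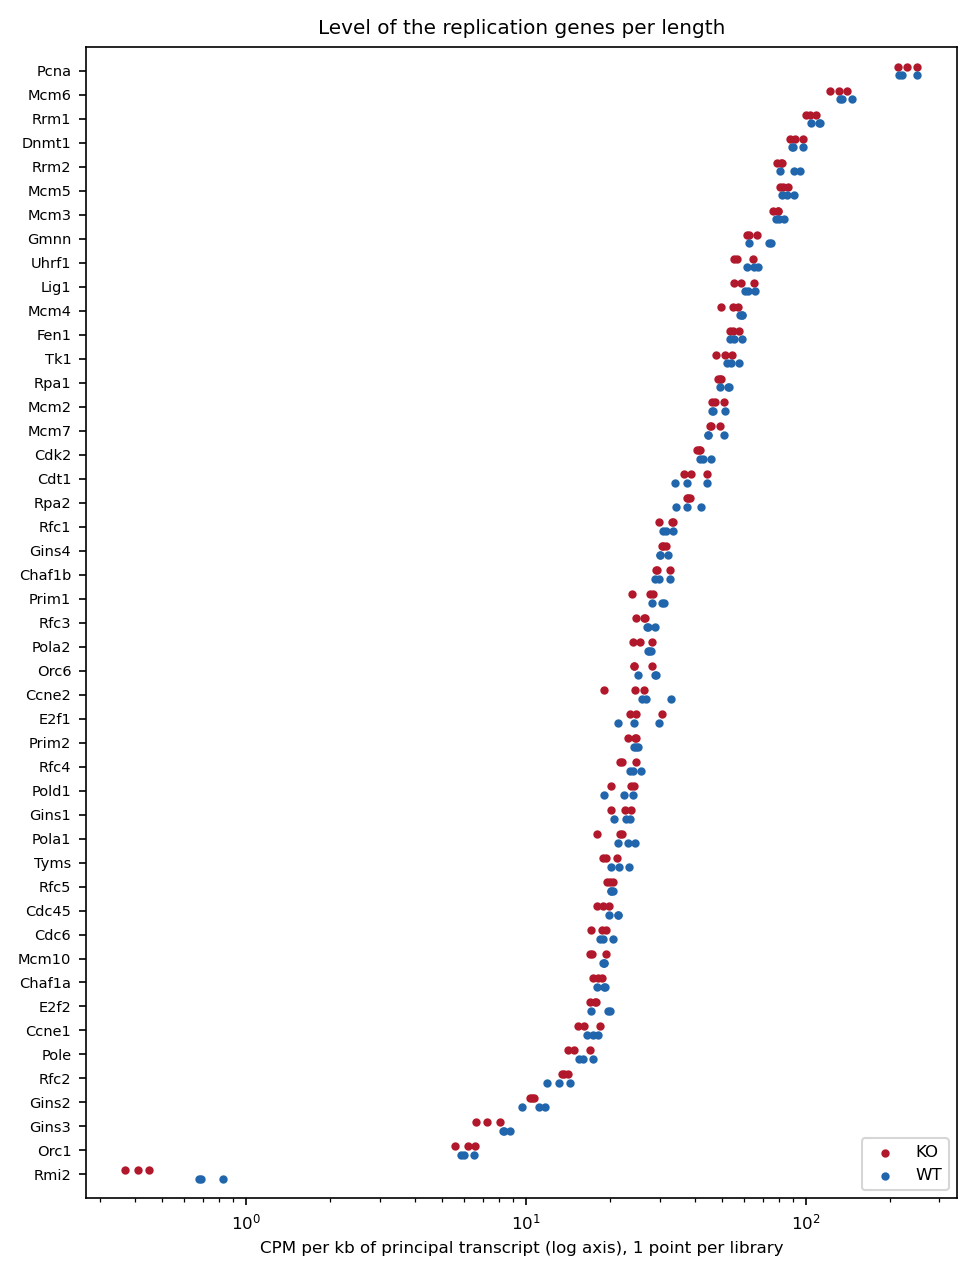
Level of the 47 replication genes in CPM per kb of principal transcript (x axis, log scale), 1 point per library, with KO above WT in each row. Genes run from Pcna, at 229, down to Rmi2, at 0.573. In 6 rows the genotypes do not overlap, though in Cdc45 the nearest KO and WT points almost coincide.

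Libraries of the same genotype differed from each other in a way that many replication genes shared. KO library 1 and WT library 2 were each the highest of their genotype for 20 of the 47 genes (42.6%), against 17.8% of all genes tested. This pair of libraries was singled out from these same values, so the excess describes a pattern and does not test it. Both also had the fewest reads of their genotype, 25454862 and 28651459, and the part of depth was not tested. Among the 20 were 5 of the 6 Mcm ring genes, Pcna, Cdt1, E2f1, Dnmt1 and all of Pola1, Pola2, Pold1 and Pole. Genes of G2 and mitosis did the opposite. Of 23 such genes, 0 had this pattern, and 15 (65.2%) were lowest of their genotype in both of these libraries, against 14.8% of all genes tested and 5 of the 47 (10.6%: Gmnn, Tyms, Rrm1, Rfc5 and Gins4). As medians over genes of the log2 distance from each gene's own mean, the values for the 47 were 0.03, −0.07 and −0.03 in KO libraries 1 to 3, against 0.03, 0.09 and 0.01 in WT libraries 1 to 3. For G2 and mitosis genes they were −0.13, −0.0028 and 0.08 in KO, against 0.08, −0.15 and 0.12 in WT. The distance between libraries of 1 genotype was therefore as large as that between genotypes for the replication genes, and larger for the mitotic genes. Nucleotide supply genes had the library order of the mitotic genes, with −0.07, −0.05 and −0.04 in KO, against 0.06, −0.04 and 0.08 in WT, and 2 of the 4 were lowest of their genotype in KO library 1 and WT library 2. Of the 20 genes with the shared pattern, 18 had a matched promoter and 10 of those held an E2F-type motif. Of the 5 with the opposite pattern, 3 had a matched promoter and 0 held one, and of the remaining 22 it was 6 of 16. Over all 47 genes it was 16 of 37, and this split follows a pattern picked from the same data.

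**Figure D4:**
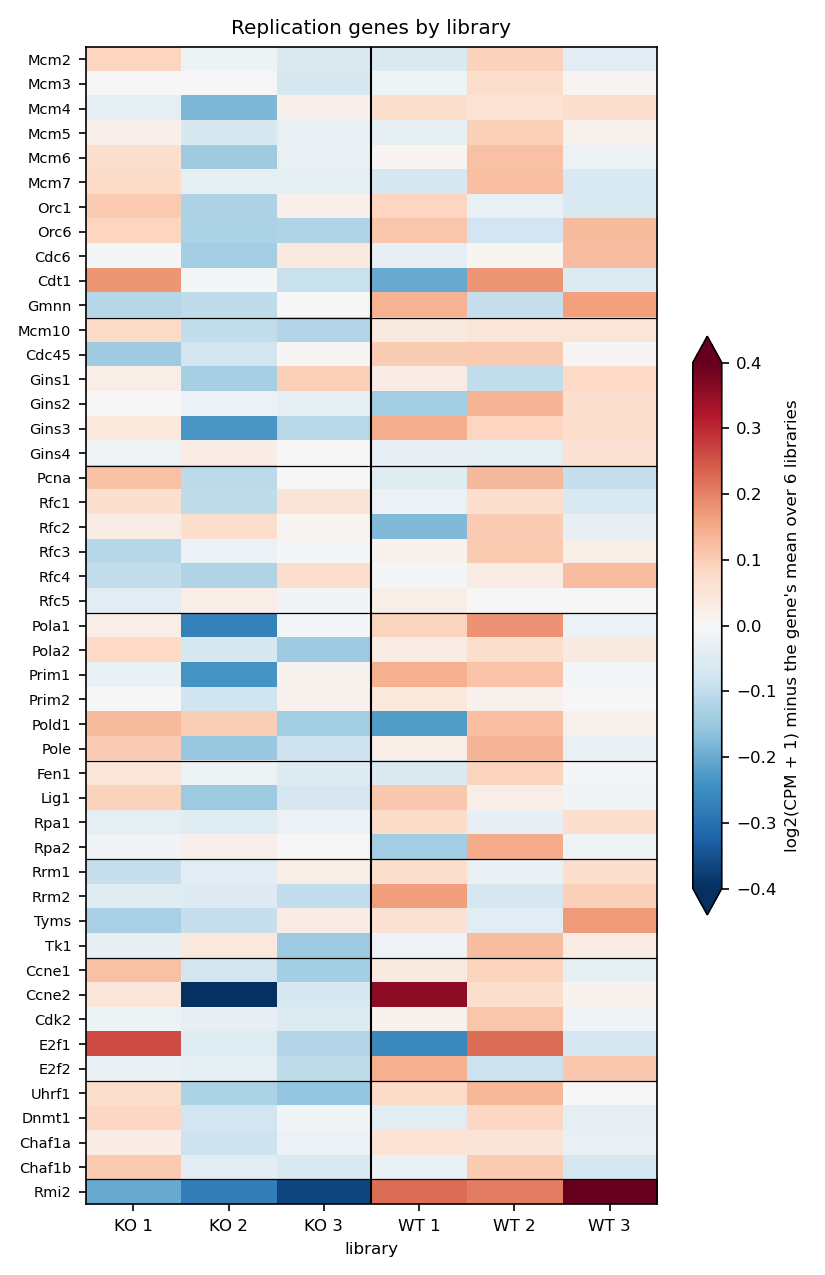
Log2(CPM + 1) of each replication gene minus its mean over the 6 libraries (colour, cut at 0.4 either way), with genes in rows by role and libraries in columns, KO left of WT. KO library 2 is mostly blue and WT library 2 mostly red, and Rmi2 in the bottom row is the row with the clearest split by genotype.

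**Figure D5:**
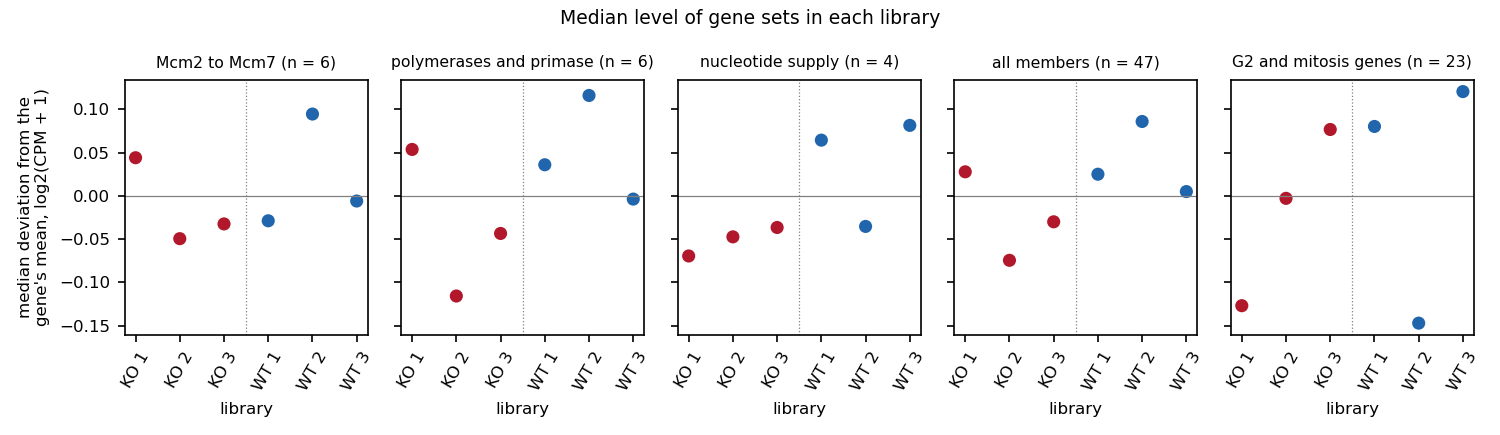
Median over genes of the log2 distance from each gene's own mean (y axis) in each library (x axis), for 4 sets of replication genes and for G2 and mitosis genes. KO library 1 and WT library 2 are the highest of their genotype for Mcm2 to Mcm7 and the lowest for G2 and mitosis genes.

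The lean towards lower levels in KO had the same direction at both Xist levels, and its median was further from 0 in the pair of libraries that had almost no Xist. That pair is 1 library against 1, and by median level these were the lowest (KO library 2, −0.07) and the highest (WT library 2, 0.09) for the 47 genes. Between KO library 2 and WT library 2, 43 of the 47 genes were lower in KO, with a median log2 difference of −0.15, where the median of all genes tested was −0.0026. Among the 4 libraries with Xist, 29 of the 47 were lower in KO and the median was −0.03, where the median of all genes tested was −0.0006. The share of all genes tested that were lower in KO was not taken for either set of libraries. The part of Xist level in the lean was not tested beyond these values. Rmi2 was lower in KO in both, at −0.60 (2 libraries per genotype with Xist) and −0.48 (1 per genotype almost without). Gins3 was at −0.14 and −0.32, Cdc45 at −0.12 and −0.18, Mcm4 at −0.08 and −0.23, Ccne2 at −0.19 and −0.50. E2f1 and Cdt1 were higher in KO with Xist, at 0.23 and 0.17, and lower without, at −0.27 and −0.18. In the 4 libraries with Xist, KO lay below WT without overlap for 15 of the 47 genes and above it for 6, where 20.9% and 21.9% of all genes tested did. None of the 47 changed in that fit either. For 4 of them, all lower in KO, limma gave an unadjusted p under 0.05 there, and the share of all genes tested with such a p was not taken.

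The lean was also seen in replication genes outside the 47. These were measured in the same 6 libraries and listed with earlier results of these data known, so they are not a second, independent observation. Of 91 other genes of origin firing, the fork, nucleotide supply, G1/S control, chromatin and replication stress, 76 had a log2 fold change below 0 (83.5%, against 49.6% of all genes tested), with a median of −0.09, and none changed. That median was −0.05 without KO library 2. In 21 of them (23.1%) KO lay below WT without overlap and in 0 above it, where 5.55% and 4.41% of all genes tested did. An unadjusted p under 0.05 was seen for 7, all lower in KO, where 2.44% of all genes tested had one on that side. In the 4 libraries with Xist, KO lay below WT for 37 of the 91 and above it for 8, against 20.9% and 21.9% of all genes tested. An unadjusted p under 0.05 was seen there for 5 on the lower and 3 on the higher side. The share of all genes tested with such a p in that fit was not taken, so these counts have no background. Cdc7, the kinase subunit that starts origin firing, had 30.4, 21.4 and 25.6 CPM in KO, against 35.0, 30.5 and 32.8 CPM in WT (log2 fold change −0.35, limma, unadjusted p = 0.0235, adjusted p = 0.866). These groups were parted by a narrow gap between KO library 1 and WT library 2. Orc2, a further subunit of the origin recognition complex, was at −0.21. Ctps, which makes CTP, and Impdh2, which makes the precursor of guanine nucleotides, were at −0.26 and −0.18. Brca2, which protects and repairs stalled forks, was at −0.26, and Topbp1, which joins origin firing to checkpoint signalling, was at −0.17. Other lists held 0 genes with an unadjusted p under 0.05. Their smallest p values belonged to Dna2 (−0.24) and Atad5 (−0.22) among fork genes, Rb1 (−0.21) and Skp2 (−0.14) among G1/S genes, Hells (−0.26) and Nasp (−0.14) among chromatin genes, and Bub1 (−0.17) and Cdk1 (−0.10) among G2 and mitosis genes. For the G2 and mitosis genes, 16 of 23 were below 0 (median −0.04), and in 0 of them were the genotypes apart. Ticrr, Blm, Fanci and Prc1 lie 4.05 to 5.13 Mb from Fah, the 1 gene besides Ube3a that changed in these data, and had log2 fold changes of −0.09, −0.10, −0.02 and −0.11. The same markers of progenitors as above were lower in KO than in 2 of the 3 WT libraries, and their part in these values was not tested.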

How the data were processed

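Libraries of mRNA were made with a KAPA kit, per the labels' protocols. Per the submitters' processing notes, the tools were FastQC 0.11.15, Trimmomatic 0.36, HISAT2 2.1.0, Cufflinks and HTSeq 0.11.0. The sources used here give neither the genome build nor the strand setting of the counting. For each of 16836 genes the authors deposited log2 CPM per library, a p-value and a log2 fold change. The deposited p-value and fold change served only as a check: limma-voom over all genes matched the deposited p-values to a relative gap of 4.01e-13. Decimal marks of the deposited log2 CPM had been lost and were restored by requiring whole reads, met for 100% of genes in each library to within 1.15e-08 of a whole read.

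Recovered reads were turned into CPM with the library sizes scaled by the authors. The 12118 genes that reached 1 CPM in 3 or more libraries were fitted on log2(CPM + 1) in R 4.3.3 with limma 3.58.1 (eBayes, trend on), on all 6 libraries with a genotype term alone and Benjamini-Hochberg adjustment over all genes tested, two-sided, with changed meaning an adjusted p under 0.05. A read was worth 0.0277 to 0.0400 CPM. Libraries of the same genotype differed by more than sampling noise (chi-square per degree of freedom 10.1 to 40.3), so none were merged. Positions, exons and lengths are those of GENCODE M21 (GRCm38), found by identifier for 16827 genes, and promoters from RefSeq. The members and lists were chosen with earlier results of these data known. Values per library are printed for the 12 members of smallest p, Mcm2 to Mcm7, the highest and lowest 3 per length, members on chromosome 7 and those whose genotypes do not overlap, and of other lists for the leading genes. A gene of those lists is not reported here, though it stayed in all tests and counts. Alternatives were other pseudocounts, filters, scalings, a count-based model, terms for replicate number and Xist, and leaving out libraries.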

Additional observations from a re-analysis of the deposited data

How the results depend on the processing

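None of the 47 replication genes, and none of the 91 others, changed under any of the 15 alternatives. The lowest adjusted p of a member was 0.163 (Rmi2, without both libraries with almost no Xist), and Rmi2 had adjusted p-values of 0.163 to 0.9998 and log2 fold changes of −0.85 to −0.49 over the alternatives. The number of members below 0 was 29 to 43 and their median −0.08 to −0.03, with 34 to 43 where 1 library was left out. The sign of 19 members, none further from 0 than a log2 fold change of −0.09, turned in at least 1 alternative, and with CPM on the plain sum of reads it did so for 4 (Mcm2, Mcm7, Orc1 and Rpa2, all then below 0). Ube3a stayed past the threshold in each alternative (highest adjusted p 0.0444).

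The count of changed genes over the whole table, 2, was 1 without a filter on low values, 1 with limma-voom on the recovered reads and 24 without both libraries with almost no Xist. It was 1 to 8 with a single library left out, with 8 without WT replicate 2 and 1 without any other. The cause was not tested. With the 7-base core of the E2F-type motif, 62.2% of member promoters matched, against 9.57% of all promoters, and with union exon lengths the median level per length was 15.9 CPM per kb, against 26.9. The length planned was that of annotated exons, and the principal transcript length used above was chosen after seeing the data.

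Deviations of same-numbered libraries from their genotype means correlated at −0.22, −0.13 and 0.14, where other pairs spanned −0.39 to 0.40. With 3 libraries per genotype, these values cannot settle whether replicate numbers pair the libraries. Replicate 2 of both genotypes also shared the near absence of Xist. With the replicate number as a block, 2 genes changed and 0 members did, and Ube3a had an adjusted p of 0.0318. Depth limits Rmi2 most, at 42 to 112 reads, and with 3 libraries per genotype the exact permutation test of a single gene cannot give a p under 0.1.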
